A study of Mus musculus with 18 samples.

Results

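The histone genes H1f2, H3f3b and H2az1 were followed through the erythroid induction of MEL cells, a mouse erythroleukemia cell line arrested as a red cell precursor. They were taken as every probe whose platform symbol is 1 of the 3 names, which gave 3 probes, 1 for each gene, among 6868 probes and 5974 genes with a symbol of their own. The genes had been picked for their ratios on arrays of this series, so their values are a description and no p-value is given for them. The cells were treated with hexamethylene bisacetamide (HMBA), a compound that makes these precursors differentiate and take up hemoglobin synthesis. On each of 18 two-colour arrays, RNA from day 1, 2, 3, 4, 5 or 6 of HMBA was set against RNA of the uninduced control, and on day 0 arrays both channels held the control. Series A ran from day 0 to day 6 with 1 array a day, and series B likewise without day 1. Series B also held 5 arrays titled SD, for days 0, 2, 3, 5 and 6. On those of days 2, 3, 5 and 6 the labels put the control into the first channel and the induced RNA into the other, the reverse of the 13 arrays without that word. All groups are of 1 cell line, no HMBA dose is given, and nothing in the labels says that arrays came from separate cultures. Each value below is a log2 ratio minus the median log2 ratio of its array.

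Histones wrap DNA into nucleosomes, and linker histones bind the DNA between them. Most histone genes are replication-linked: they are transcribed in S phase, and their mRNAs usually end in a stem-loop without a poly(A) tail. Variant histones are mostly made throughout the cell cycle from polyadenylated mRNAs and are put into chromatin outside replication by their own chaperones. H1f2 encodes H1.2, a linker histone of the replication-linked class whose gene can also give a polyadenylated mRNA in differentiating cells. H3f3b encodes the replacement histone H3.3, laid down in active genes by the HIRA complex and in heterochromatin by DAXX and ATRX. H2az1 encodes the variant H2A.Z, placed beside promoters by the SRCAP and EP400 remodelers. In maturing erythroid cells, division stops and chromatin condenses.

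The promoters of the 3 genes are shown because histone genes of the replication-linked class are known for shared promoter elements. Each is the 250 bases before the start site that RefSeq's promoter table for GRCm38.p6 uses, printed from 5′ to 3′ on the gene's strand. For H3f3b that start lies inside the annotated gene, which reaches further upstream, so the stretch shown is that of an inner start. Capitals mark matches to 3 motifs, each searched on both strands. The H1 box, an element of linker histone promoters, was searched as AAACACA. The CCAAT box, bound by NF-Y, reads ATTGG where it lies on the opposite strand. The TATA box was searched as TATAAA and as TATATA, whose matches can overlap.
H1f2, chr13:23738557-23738806, plus strand: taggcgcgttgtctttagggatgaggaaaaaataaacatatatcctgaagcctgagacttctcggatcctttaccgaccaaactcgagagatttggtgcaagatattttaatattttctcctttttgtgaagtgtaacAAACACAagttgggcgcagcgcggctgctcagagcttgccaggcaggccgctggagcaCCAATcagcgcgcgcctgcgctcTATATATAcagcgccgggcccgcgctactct
H3f3b, chr11:116024505-116024754, minus strand: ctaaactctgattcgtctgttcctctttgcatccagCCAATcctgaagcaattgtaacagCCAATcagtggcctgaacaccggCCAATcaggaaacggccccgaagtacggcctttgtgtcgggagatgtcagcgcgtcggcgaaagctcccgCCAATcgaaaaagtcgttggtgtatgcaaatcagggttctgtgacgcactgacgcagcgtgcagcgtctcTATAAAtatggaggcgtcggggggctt
H2az1, chr3:137864237-137864486, plus strand: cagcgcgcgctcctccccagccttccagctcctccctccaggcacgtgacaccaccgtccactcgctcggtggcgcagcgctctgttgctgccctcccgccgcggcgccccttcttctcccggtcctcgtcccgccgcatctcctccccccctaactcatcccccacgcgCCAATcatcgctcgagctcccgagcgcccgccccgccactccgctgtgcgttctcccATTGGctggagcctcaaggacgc
The H1f2 promoter held the H1 box 112 to 106 bases before the start, a CCAAT at 54 to 50, and 2 overlapping TATATA matches that end 24 bases before it. That of H3f3b held 4 CCAAT matches and a TATAAA at 27 to 22 bases. That of H2az1 held 2 CCAAT matches, 1 on each strand, and neither of the other letters, with 71.2 percent G and C against a median of 52.4 percent over all promoters. Of 32851 promoters in the table, 6.25 percent held an H1 box, 33.8 percent a CCAAT and 15.6 percent a TATA match in these 250 bases. A match is a stretch of letters and was not tested as a binding site.

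Between 2008 and 4945 probes had a value on the 13 arrays without the SD title. A positive ratio there likely means more RNA in induced cells, and a negative one likely means so on the SD arrays. This reading goes by the channel labels, by globin and by the erythroid marker Alas2. The alpha-globin family probe Hba-ps3 was 4.43 log2 higher on days 4, 5 and 6 than on day 0, and on the SD arrays its difference between days 5 and 6 and day 0 was -5.22. The beta-globin probe Hbb-b2 was at 2.34 and -2.44 in the same comparisons, with a smaller difference between exchanged arrays (a mean of 0.79 over 4 pairs, as defined for the histone genes). Alas2, with a value on 9 of the 13 arrays, was at 3.60 and -3.66, and at 2.99 between exchanged arrays in 1 pair. Other globin probes did not all turn. An Hba-x probe was at 0.26 and 0.67 in these comparisons. On the SD arrays Hbb-bh0 was at 0.58 and an Hbb-bh1 probe at -1.28. Whether the sign of the SD columns was turned before deposit is not given in the sources used here, and their values look like the negative of a log2 ratio. The direction of an SD value therefore rests on Hba-ps3, Hbb-b2 and Alas2. What B and SD arrays share can be read only as a common value of the deposited columns. Ratios carry no level, so the cell type could be checked only by how many arrays gave a value, which did not separate the marker lists. The 9 erythroid markers had values on 4 to 18 arrays, those of T cells on 1 to 9, of B cells on 2 to 17, of macrophages on 0 to 8, of granulocytes on 1 to 16, of mast cells on 2 to 14 and of megakaryocytes on 9 to 18. Late differences were 2.49 and 0.10 for the megakaryocyte markers Itga2b and Pf4. They were -3.14 and 0.66 for the mast cell markers Mcpt2 and Kit. The remaining marker of each list, Gp9 and Cpa3, had no late difference. The megakaryocyte values were thus above 0 but of unlike size, and the mast cell values went opposite ways. The part of these markers in the results was not tested. In a bulk culture, fewer cells of a type and less RNA per cell cannot be told apart.

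H1f2 had the largest ratios of the 3 histone genes. In series A it was at 0.62, 0.14, 3.62, 3.13 and 1.82 for days 0, 2, 4, 5 and 6, with no value for days 1 and 3. In series B it was at 4.35, 2.35, 2.46, 6.79 and 2.48 for days 2 to 6, with no value for day 0. The SD arrays read -0.34, -3.74, -3.70, -3.66 and -3.47 for days 0, 2, 3, 5 and 6. All 6 late arrays (days 4, 5 and 6) therefore lay above the only day 0 array with a value, and all 4 induced SD arrays lay below their own day 0 array. Both series disagreed on day 2, where series A read close to its day 0 value and series B did not. The H1f2 late mean was 3.38 against 0.62 on day 0, a difference of 2.77 log2 or 6.81-fold. Without day 5 of series B, the highest array, that difference was 2.16. With the series letter as a replicate block it was 1.85, since the day 0 value is of series A alone.

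H3f3b had ratios on day 0 far below the array median. In series B it was at -2.21, 0.84, -1.12, -1.84, 2.09 and -1.44 for days 0, 2, 3, 4, 5 and 6. In series A, with days 0 and 2 missing, it was at 0.15, 0.27, -0.82, 0.73 and -0.47 for days 1, 3, 4, 5 and 6. The SD arrays read -1.88, -3.48, -3.06, -3.35 and -3.59 for days 0, 2, 3, 5 and 6. All 10 induced arrays lay above the series B day 0 array, and all 4 induced SD arrays lay below the SD day 0 array. The late mean of H3f3b was -0.29 against -2.21 on day 0, so it was 1.91 log2 (3.77-fold) above day 0 while still under the array median. Day 5 was above days 4 and 6 in each series.

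H2az1 had the same low start on 3 day 0 arrays. These read -1.71 in series A, -2.60 in series B and -2.92 for the SD array. Series A went on with -0.69, 0.75, 2.27, -0.70, 0.52 and -1.62 for days 1 to 6. Series B read -2.40, -1.79, -1.44 and 0.17 for days 2, 3, 5 and 6, with day 4 missing. The series differed most on days 2 and 3, when series A had its highest ratios and series B the 2 lowest of its induced ratios. The induced SD arrays read -3.37, -2.07, -6.23 and -5.21 for days 2, 3, 5 and 6. Days 2, 5 and 6 thus lay below the SD day 0 array, and day 3 lay above it. The late mean of H2az1 was -0.63 over 5 arrays against -2.16 on day 0 over 2, a difference of 1.53 log2 (2.89-fold).

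**Figure D1:**
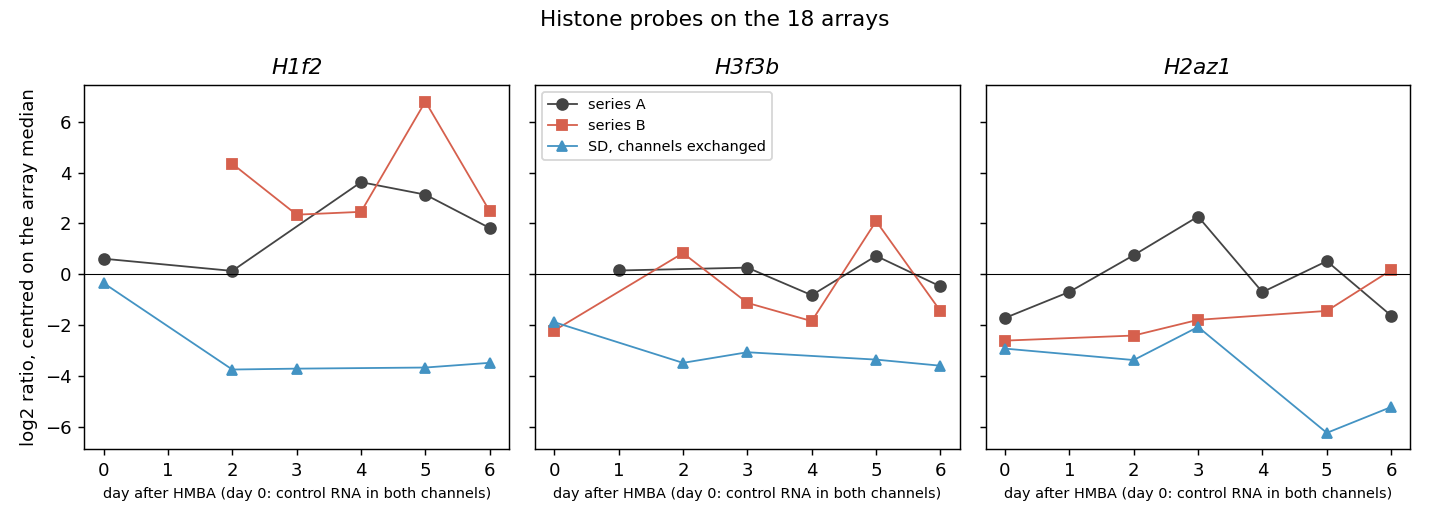
Centred log2 ratio (vertical axis) by day after HMBA (horizontal axis) for the H1f2, H3f3b and H2az1 probes, with a point for each array of series A, series B and the SD arrays with exchanged channel labels. H1f2 sits between -0.34 and 0.62 on day 0 and every induced SD array lies below -3, while H3f3b and H2az1 start between -2.92 and -1.71 in both orientations.

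Over all probes, the late comparison called none by limma, which moderates each probe's spread by that of the others (0 of 1211 at an adjusted p under 0.05, 0.0 percent, with 28 at an unadjusted p under 0.05). H1f2 had a value on 10 of the 13 arrays, under the minimum of 11, and was not tested. H3f3b and H2az1 entered with 11 and 12. For each of the 3 genes every late array was above every day 0 array. The same held for 84 of the 1586 probes with at least 5 late values and a day 0 value, or 5.3 percent, and since the genes were chosen on this contrast nothing further is read from it. Among the 2615 probes with a late difference, H1f2 ranked 9 from the highest, H3f3b 45 and H2az1 106, where the median probe was at 0.16.

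How much of the late difference came with the day 0 ratio was set out in measured values. On day 0, with the same RNA in both channels, 2.15 percent of 4549 probes lay below H3f3b and 2.31 percent below H2az1, whereas 78.6 percent lay below H1f2. When the late ratios were not set against day 0, H1f2 was at 3.38 and ranked 3 of 2956 probes. H3f3b and H2az1 were then at -0.29 and -0.63, below the median probe at -0.04, so their direction reversed. When the mean day 0 profile, scaled to each array by regression over probes, was removed, H1f2 was at 2.75, H3f3b at 1.25 and H2az1 at 0.58. These are 99.5, 65.1 and 37.7 percent of the differences from day 0. The difference from day 0 subtracts the whole day 0 ratio. The removal subtracts it times a slope, 0.46 to 0.61 on late series A arrays and 0.75 to 1.13 on those of series B. The percentages thus follow largely from the day 0 ratio and the slopes, and are not the share of a rise free of day 0 bias. H1f2 and H3f3b each rest on 1 day 0 array here, of series A for H1f2 and of series B for H3f3b.

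**Figure D2:**
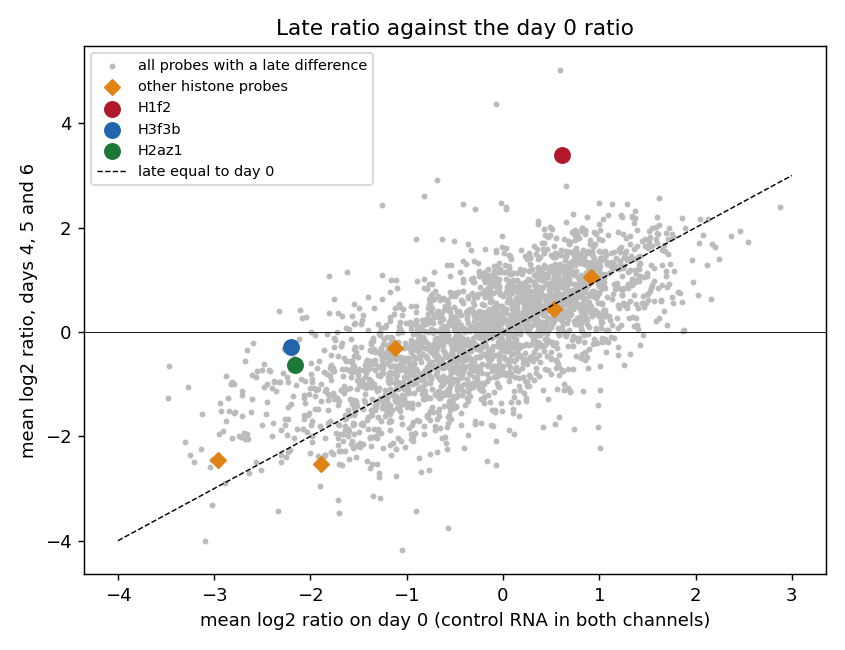
Mean log2 ratio of days 4, 5 and 6 (vertical axis) against the mean ratio on day 0 (horizontal axis) for 2615 probes in grey, with other histone probes as diamonds and the 3 histone genes as large points; the dashed line is late equal to day 0. H1f2 stands above 0 on both axes, and H3f3b and H2az1 stand above the dashed line but below 0 on both.

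The exchanged channels gave a measure that needs no day 0 array. Over all probes, the B and SD arrays of a day correlated positively, with Pearson r of 0.58, 0.42, 0.43 and 0.52 on days 2, 3, 5 and 6 (1311 to 2292 probes) and 0.66 on day 0. The ratio of a day's B array minus that of its SD array, divided by 2, keeps what turns with the channels and is called the turned part. Their sum divided by 2 keeps what both arrays hold in common and is called the shared part. On days 2, 3, 5 and 6 the turned part of H1f2 was 4.04, 3.02, 5.23 and 2.98 log2, and its shared part 0.30, -0.68, 1.57 and -0.50. The H1f2 ratio thus turned with the channels on each day, at 3.82 ± 1.06 log2 (SD, n = 4 pairs) or 14.1-fold, with a mean shared part of 0.17. Of the 1310 probes with 3 or 4 pairs, its mean turned part ranked 1 from the highest.

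For H3f3b the turned part was 2.16, 0.97, 2.72 and 1.07 on these days, with a mean of 1.73 ± 0.85 (SD, n = 4 pairs) or 3.32-fold. Its shared part averaged -1.64 ± 0.84, close in size, and its day 0 pair had a shared part of -2.04 and a turned part of -0.16. H3f3b therefore carried a shared low ratio and a part that turned with the channels. For H2az1 the turned part was 0.48 and 0.14 on days 2 and 3, then 2.40 and 2.69 on days 5 and 6. Its mean was 1.43 ± 1.30 (SD, n = 4 pairs) or 2.69-fold, and 2.54 over days 5 and 6 alone. The shared part of H2az1 was the larger, -2.79 ± 0.80, against -2.76 on its day 0 pair. That pair, with control RNA in each channel, had a turned part of 0.16, above the 0.14 of day 3. H3f3b ranked 5 and H2az1 8 of the 1310 probes by turned part.

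The turned part was above 0 in 4 of 4 pairs for each of the 3 genes, as for 40 of 678 probes with all pairs (5.9 percent). Together with late arrays all above day 0 it held for 9 of 633 (1.42 percent), these 3 among them. For H2az1 these counts include day 3, whose turned part of 0.14 lay under the 0.16 of its day 0 pair. H1f2 had no day 0 pair. A mean turned part above 1 was found for 26 of 1310 probes (1.98 percent), again with these 3. By limma, 16 of 1310 probes had a turned part other than 0 at an adjusted p under 0.05 (1.22 percent). The 3 genes were chosen on these arrays, so no call is given for them and their counts here are no independent support. Without the pair of day 2, 3, 5 or 6 in turn, the mean turned part lay between 3.35 and 4.10 for H1f2, 1.40 and 1.98 for H3f3b, and 1.01 and 1.86 for H2az1.

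**Figure D3:**
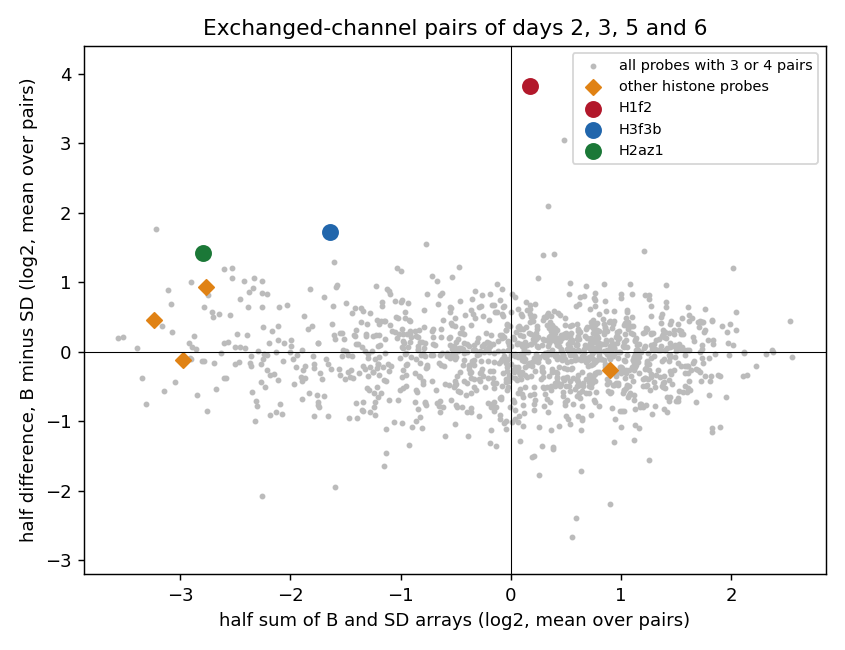
Mean turned part (B minus SD, vertical axis, log2) against mean shared part (horizontal axis, log2) over the pairs of days 2, 3, 5 and 6 for 1310 probes in grey, other histone probes as diamonds and the 3 histone genes as large points. H1f2 lies highest, at 3.82 and close to 0 on the horizontal axis, while H3f3b and H2az1 lie at 1.73 and 1.43 with shared parts of -1.64 and -2.79.

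On the SD arrays taken alone, days 5 and 6 minus day 0 was -3.23 for H1f2, -2.80 for H2az1 and -1.59 for H3f3b, where a negative value likely stands for higher in induced cells. Limma called 0 of 1968 probes in that comparison (0.0 percent, 34 at an unadjusted p under 0.05), with 1 day 0 array. On all 4 induced SD arrays H1f2 and H3f3b lay below the SD day 0 array, as did 13.3 percent of 1107 probes, and H2az1 did so on 3 of 4. The fit over all 18 arrays, with a mean for each probe and the induced effect entering by channel orientation, put the late effect at 3.53 for H1f2, 2.08 for H2az1 and 1.36 for H3f3b. By day its effect for H1f2 was 2.83, 3.02, 3.30, 4.62 and 2.68 on days 2 to 6. For H3f3b it was 1.82, 2.16, 1.29, 0.34, 2.61 and 1.11 on days 1 to 6, and for H2az1 1.66, 1.35, 1.63, 1.65, 2.55 and 2.04. This fit holds 1 mean per probe for series A, B and SD alike, and days 1 and 4 have no exchanged array. On days 2 and 3 the pairs alone gave H2az1 a turned part of 0.48 and 0.14. The slope on the day 0 profile was -0.05 to 0.61 on series A arrays and 0.75 to 1.14 on those of series B, and its part in these effects was not tested.

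Early days were compared for the 2 variant genes. The early mean (days 1 and 2) of H3f3b was 2.70 above day 0 and that of H2az1 1.40. The H3f3b mean rests on 1 series A array (day 1, 0.15) and 1 series B array (day 2, 0.84), set against 1 series B day 0 array. On day 2 the H2az1 arrays were at -2.40 and 0.75. For H3f3b the early value was 0.49 when not set against day 0 and 1.39 with the day 0 profile removed. With SD arrays averaged with B arrays as deposited it was 1.46. In that average the turned part of a pair cancels and its shared part stays, so 1.46 is no further estimate of an induced rise. Late minus early was -0.79 for H3f3b and 0.13 for H2az1, and neither exceeded the spread of its own arrays within days (0.85 and 1.85 log2). H1f2 had no day 1 value and thus no early difference by this definition. Limma called 0 of 1060 probes early (0.0 percent, 37 at an unadjusted p under 0.05) and 0 of 1050 for late minus early (0.0 percent, 67 at an unadjusted p under 0.05).

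Other replication-linked histones were sparsely measured. Besides H1f2 the list held 10 probes of 8 genes, each with a value on at least 1 array, and 5 further probes that name several such genes were left out. The core histone gene H2ac10 had a value on 17 arrays, and was at -2.45 late against -2.97 on day 0 (difference 0.51, limma adjusted p = 0.9999). Its mean turned part was -0.12 (limma adjusted p = 0.931), and its mean shared part was -2.97. H2bc22, of the H2B family, was at 1.06 late against 0.92 on day 0, a difference of 0.15. Its SD arrays were at -0.76, -0.50, -1.28 and -1.67 for days 2, 3, 5 and 6, all below the 1.16 of SD day 0. The H2bc22 turned part was 0.76 over 2 pairs, and its late effect in the 18-array fit was 1.23. The 2 probes of H4c14, an H4 gene, had no day 0 value and mean turned parts of 0.93 and 0.45 over 3 pairs each (limma adjusted p = 0.276 and 0.682), with shared parts of -2.76 and -3.24. The largest of these, 0.93, lay below the 3.82 of H1f2, and that difference was not tested. The other linker histones of the class, H1f4 and H1f5, had values on 3 and 2 arrays. For the H3 gene H3c8, 1 probe had a late effect of 0.71 in the 18-array fit, and the other, with 6 arrays and none on day 0, was at 1.21 late. H3c15, also of the H3 family, was at 2.99 on day 4 of series B, 0.17 on day 2 of series A and 0.66 on day 0 of series A. H2ac4 had 1 value.

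Of the other variant histones, Macroh2a1 encodes macroH2A, which marks silent chromatin, and it was at 0.45 late against 0.53 on day 0 (difference -0.09, limma adjusted p = 0.9999). Its mean turned part was -0.27 (limma adjusted p = 0.771). H2ax, whose product is phosphorylated at DNA breaks, was at -0.31 late against -1.12 on day 0, a difference of 0.82. Its day 0 value is of series A alone, and its turned part was 1.59 in 1 pair, that of day 2. Cenpa, the H3 variant of centromeres, was at -2.53 late against -1.89 on day 0, a difference of -0.64, and its turned part was -0.95 over 2 pairs. Its B and SD arrays read -3.28 and 0.50 on day 2 but -0.83 and -0.80 on day 6. The mean turned part of Cenpa thus came from day 2, and its only late pair hardly differed. For the testis linker histone H1f6 a late difference could not be computed, as day 4 had no value. It was at 0.16 and -0.64 on days 5 and 6 of series A and -1.75 on day 6 of series B, against -0.18 on day 0 of series A.

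Set by class, the late effect of the 18-array fit was above 0 for 5 of 5 other replication-linked probes (median 0.71) and for 1 of 3 other variant probes (median -0.26). Over all 3428 probes with a late effect 56.9 percent were above 0, with a median of 0.10. H1f2 was at 3.53 and H2az1 at 2.08, and then came 1 H4c14 probe at 1.65, H2ax at 1.51 and H3f3b at 1.36. The other H4c14 probe was at 0.48, and the 5 count both. The probe at 1.65 had a mean turned part of 0.45. It read 2.30 on day 5 of series A, but -2.28 and -4.61 on days 5 and 6 of series B. The 3 genes were picked for high ratios, so their places in this order are a description.

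For genes that handle histones, the values given are late differences from day 0 in log2. Of 13 chaperone genes on the array, 9 had a late difference, 2 above 0 and 7 below, with a median of -0.19 against 0.16 over all probes, of which 59.4 percent were above 0, and 0 of the 5 tested passed. Anp32a, Nap1l4 and Nap1l1, the best measured, were at -0.76, -0.06 and -0.19. Hira, which deposits H3.3, was at 0.60 but had a turned part of -0.92 over 3 pairs (limma adjusted p = 0.424), and Anp32e, which removes H2A.Z, was at -0.86. Of the H2A.Z exchange list, 2 of 4 probes were above 0, with Vps72, an H2A.Z-binding subunit, at -0.25 and the shared actin gene Actb at 0.70 and 0.37 on its 2 probes. Among genes of histone mRNA processing, the stem-loop binding protein gene Slbp was at 0.65, Casp8ap2 at -0.25 and Coil at -1.64, and 1 of 3 was above 0. Of the histone acetylation list 3 of 6 were above 0, with the acetyl-lysine reader Brd2 at 1.00 and the deacetylase genes Sirt1 at -0.79 and Hdac6 at 1.43. In each of these lists limma called 0 probes late. In the 18-array fit the counts above 0 were higher, at 6 of 12 chaperones, 5 of 6 probes of H2A.Z exchange, 2 of 4 of mRNA processing and 6 of 7 of acetylation, against 56.9 percent of all probes.

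**Figure D4:**
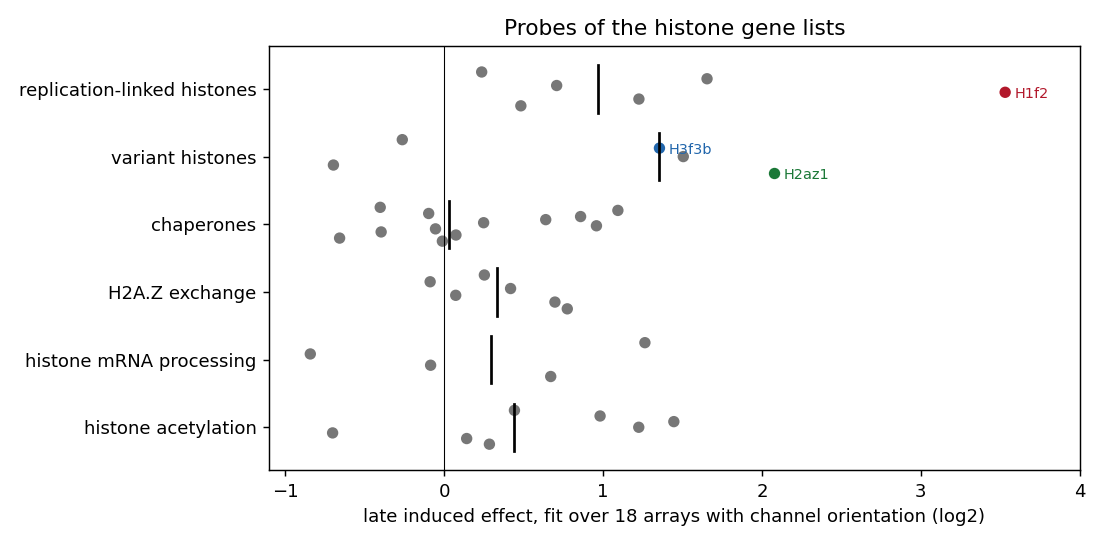
Late induced effect in log2 from the fit over 18 arrays (horizontal axis) for each measured probe of 6 lists of histone genes and histone handling genes, with a vertical bar at each list's median, the 3 genes included. H1f2 lies at 3.53, apart from the other replication-linked probes, and H2az1 and H3f3b lie at 2.08 and 1.36.

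Probes with a like course were sought over at least 11 shared arrays of the 13. No probe could be compared with H1f2, which has 10. Nearest to H3f3b among 362 probes were Hipk1, Fut2 and Rplp0 (Pearson r of 0.85, 0.85 and 0.84 over 11 arrays). Nearest to H2az1 among 746 were Cox7c, Slc25a4 and Psma6 (r of 0.86 and 0.76 over 11 arrays, and 0.76 over 12). After the day 0 value of each series was subtracted, those nearest to H2az1 were Ftl2-ps, Cox7c and Slc25a4 (r of 0.83, 0.76 and 0.69 over 11 arrays, 705 probes). The points share the array and its centring, and these correlations carry no p.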

How the data were processed

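Two-colour arrays compared RNA from HMBA-treated and uninduced MEL cells, per the labels. The values are log2 ratios that the authors deposited in 1 table. The scale was recognised from the values, while the dyes, numerator channel and earlier normalization are not given in the sources used here. Each array was centred on its median (-0.15 to 0.70 as deposited). Probe symbols came from the platform annotation (6108 probes with 1 symbol, 41 with several, 719 with none; 6062 Entrez identifiers matched RefSeq). Day means were fitted over 13 arrays with limma 3.58.1 in R 4.3.3 for probes with at least 11 values and 1 on day 0. Turned parts, (B minus SD)/2 over at least 3 of 4 pairs, and the 5 SD arrays alone (at least 4 values) were tested likewise, two-sided, with Benjamini-Hochberg adjustment at 0.05. Missing values were left out probe by probe. Measured probes of the histone lists were named in order of arrays with a value, and from each other list up to 3 probes; Hira, Anp32e, and the histone genes beyond the best measured 8 were added after their values were seen. The median late difference over tested probes was 0.21, and 0.46 without centring. The late fit and the fit of turned parts were run on simulated data with independent noise. For the late fit each simulated probe had 1 mean on all arrays, and turned parts were simulated directly. The simulation therefore says nothing on slopes that differ between series or on the shared part. The genes, lists and tests were chosen with earlier results of these data known. With no separate cultures named, a p-value covers array-to-array spread alone, perhaps a technical one, and the number of arrays limits the precision. No spot intensities were used, and cross-hybridisation between related histone genes could not be checked.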

Additional observations from a re-analysis of the deposited data

Results flagged for a closer look

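Among the 6 late arrays, H1f2 on day 5 of series B, at 6.79 log2, stood apart from the other 5, which lay between 1.82 and 3.62. Such a gap arises by chance in about 1 of 20 groups. The SD array of the same day read -3.66, close to the 3 other induced SD arrays. Without day 5 of series B the late difference was 2.16, and without the day 5 pair the mean turned part was 3.35.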

How the results depend on the processing

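Over the 3 histone genes, 164 values under alternatives moved by less than the spread of their arrays, 4 moved by more and 8 reversed. Some of the 164 could not move, since the array left out does not enter the contrast. Early H3f3b was 2.70 in each of 10 settings without a single array. The spread of H2az1, 1.85, exceeded its late difference of 1.53, so the 0.58 with the profile removed counted among the 164. The count is therefore no measure of robustness. Ratios not set against day 0 reversed H3f3b late (-0.29) and H2az1 late (-0.63) and early (-0.76), and the profile removal reversed H2az1 early (-0.30). Averaging SD with B arrays as deposited, which cancels the turned part of each pair, reversed H2az1 late minus early (-0.60). That difference lay between -0.66 and 0.92 when single arrays were left out. Leaving out single arrays put the late difference between 2.16 and 3.38 for H1f2, 1.69 and 2.14 for H3f3b and 1.09 and 1.98 for H2az1, and the early one of H2az1 between 0.61 (day 2 A left out) and 2.19 (day 2 B left out). The late count of 0 called probes became 268 against 0, 61 with the profile removed, 16 with the orientation term, and 0 to 1 without single arrays (1 without day 3 of either series). With the series letter as a replicate block it was 1, and H1f2, H3f3b and H2az1 were at 1.85, 1.66 and 1.26 late; the A minus B differences of the days correlated between -0.01 and 0.42 (median 0.27), not all above 0.1, so the letters were not taken as pairs. The 16 calls of the exchanged pairs became 34 without centring, 108 with the day 0 pair subtracted, and 0 (without day 2), 1 (without day 5) to 74 (without day 6) without single pairs. The cause of these moves was not tested. A late value could not be computed where the array left out was the only one of its day: day 0 A for H1f2, day 0 B for H3f3b and day 4 A for H2az1.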
